A study of Mus musculus with 9 samples.

Results

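Replication-dependent histone genes encode the H1 linker histone and the H2A, H2B, H3 and H4 core histones that package new DNA in S phase. Their messengers are known as the exception among protein-coding transcripts: most end in a conserved stem-loop that SLBP binds and that the U7 particle helps to cut, and they carry no poly(A) tail. Polyadenylated forms of some of these genes are known from cells that have left the cell cycle or differentiated, and a library made from poly(A) RNA reads mainly those forms. The values here are therefore levels in poly(A) RNA, not the total histone messenger of the cells.

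The genes were the rows whose symbol carries the older mouse nomenclature, Hist1h to Hist4h. By the symbol printed in the deposited tables, 9 of 55450 rows matched, since the tables give the other genes of these clusters newer symbols such as H1f2 for Hist1h1c. Matching each row's Ensembl identifier to its GENCODE vM21 symbol gave 70 rows, the 9 included, and these 70 are described below under the older symbols. They comprise 6 H1, 20 H2A, 19 H2B, 12 H3 and 13 H4 genes, of which 56 lie on chromosome 13, 10 on chromosome 3, 3 on chromosome 11 and 1 on chromosome 6 (GRCm38).

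The cells were primary mouse articular chondrocytes, the cartilage cells of the joint surface, in 3 groups of 3 poly(A)-selected libraries. All 3 groups were digested with hyaluronidase at 4 U/mL for 4 h and cultured at 3% oxygen in medium with 10% serum. The first group received 50 μg/mL bleomycin, a DNA-cleaving drug used in the study to bring on senescence, for 24 h and then 20 μM ST045849, used to inhibit O-GlcNAcylation, for 5 days. The second received the same bleomycin and then DMSO for 5 days, and the third received PBS in place of bleomycin and then DMSO for 5 days (vehicle plus DMSO). The labels do not say whether replicates were separate animals or dishes, so p-values measure the spread between these libraries, which may be technical.

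Levels are in FPKM, the number of fragments scaled by transcript length and by library size. The files hold no counts. Of the low values of single-exon genes, 31.3% to 36.1% per library against 10% by chance, lay within 0.05 of a whole step. If a step is 1 fragment, 1 fragment in a 400-base transcript is 0.0697 to 0.0799 FPKM. The chondrocyte markers were high, with Col2a1, the main collagen of cartilage, at 9477 to 14700 FPKM in bleomycin plus ST045849, 12435 to 18516 FPKM in bleomycin plus DMSO and 16338 to 24072 FPKM in vehicle plus DMSO.

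The sequence that sets these genes apart is the stem-loop. For each member, only the GENCODE vM21 coding transcript with the longest annotated 3′ UTR was searched after its stop codon. The letters were found in 45 of the 52 members with annotated bases to search, 21 to 58 bases behind the stop. Over all 21901 coding genes of that annotation, 51 (0.233%) held them anywhere in a coding transcript, 46 of which were histone genes of this family. The stem-loops of the 12 genes that reached the level filter below and have one are shown to compare the classes, as DNA letters of the GRCm38 transcripts with the 16 stem-loop bases in capitals and 5 flanking bases on each side.
Hist1h1c: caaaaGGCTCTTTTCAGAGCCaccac
Hist1h1e: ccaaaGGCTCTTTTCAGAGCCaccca
Hist3h2a: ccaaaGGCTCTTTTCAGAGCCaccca
Hist2h2aa2: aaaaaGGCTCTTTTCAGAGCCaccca
Hist2h2ac: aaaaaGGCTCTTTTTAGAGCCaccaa
Hist1h2be: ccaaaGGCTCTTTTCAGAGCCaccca
Hist2h3c1: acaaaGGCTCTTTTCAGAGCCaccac
Hist2h3c2: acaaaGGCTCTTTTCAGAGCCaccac
Hist1h3d: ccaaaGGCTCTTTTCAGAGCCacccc
Hist1h4h: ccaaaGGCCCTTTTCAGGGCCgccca
Hist1h4i: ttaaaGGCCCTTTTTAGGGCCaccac
Hist1h4a: ccaaaGGCCCTTCTCAGGGCCgccca

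Across the family the commonest form, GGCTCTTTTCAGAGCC, was held by 25 members of the H1, H2A, H2B and H3 classes and by no H4 gene. The commonest H4 form, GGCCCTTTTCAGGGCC, was held by 7 H4 genes. For the other 3 genes that reached the filter no match was found in the search described above. The longest annotated 3′ UTR of Hist1h2bc, 742 bases, has none, Hist2h2bb is annotated with no bases after its stop, and Hist1h2al is annotated as a processed pseudogene.

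Most of the family was near 0 in these libraries, and 3 genes carried most of what was read. Of the 70 members, 15 reached 1 FPKM in 3 or more of the 9 libraries, 1 of them among the 9 rows that keep the older symbol in the files (Hist1h2al). Another 4 reached 1 FPKM in 1 or 2 libraries, 51 never reached it, and 7 were listed at 0 in every library. Only 5 members were at 1 FPKM or more in all 9 libraries, namely Hist1h1c, Hist1h2al, Hist1h2bc, Hist3h2a and Hist2h2bb. The sum of Hist1h1c, Hist1h2al and Hist1h2bc made up 81.2% to 85.6% of the family's summed FPKM in each library.

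The filter bears on every comparison below. Of the 15 members, 10 were under 1 FPKM in at least 1 vehicle library and 6 were under it in all 3. Those 10 passed only with the help of bleomycin libraries, which favoured higher values there. The 6 without a vehicle library at 1 FPKM had to stand higher in the bleomycin libraries that carried them. Hist1h2be reached 1 FPKM only in the 3 libraries of bleomycin plus ST045849, so it also had to stand above bleomycin plus DMSO there. Counts and medians over the 15 are given as description.

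The summed FPKM of the 70 genes was 230.1, 465.7 and 555.0 in bleomycin plus ST045849, 166.7, 238.5 and 299.3 in bleomycin plus DMSO, and 127.6, 68.5 and 112.3 in vehicle plus DMSO. Neither bleomycin group overlapped the vehicle group, and the 2 bleomycin groups overlapped each other through library 1 of bleomycin plus ST045849. The ratio of the means was 2.28 for bleomycin plus DMSO over vehicle plus DMSO, 1.78 for bleomycin plus ST045849 over bleomycin plus DMSO, and 4.06 for bleomycin plus ST045849 over vehicle plus DMSO. Total FPKM over all genes also differed, at 382247, 483953 and 468012 in bleomycin plus ST045849. It was 356573 to 370089 in bleomycin plus DMSO and 340303 to 406644 in vehicle plus DMSO. The family's share of it was 0.0602%, 0.0962% and 0.119%, then 0.0467%, 0.0644% and 0.0822%, then 0.0314%, 0.0201% and 0.0308%, in the same order of groups. On that scale both ratios with bleomycin plus ST045849 are smaller. In bulk RNA, more cells with a transcript and more transcript per cell cannot be told apart.

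**Figure D1:**
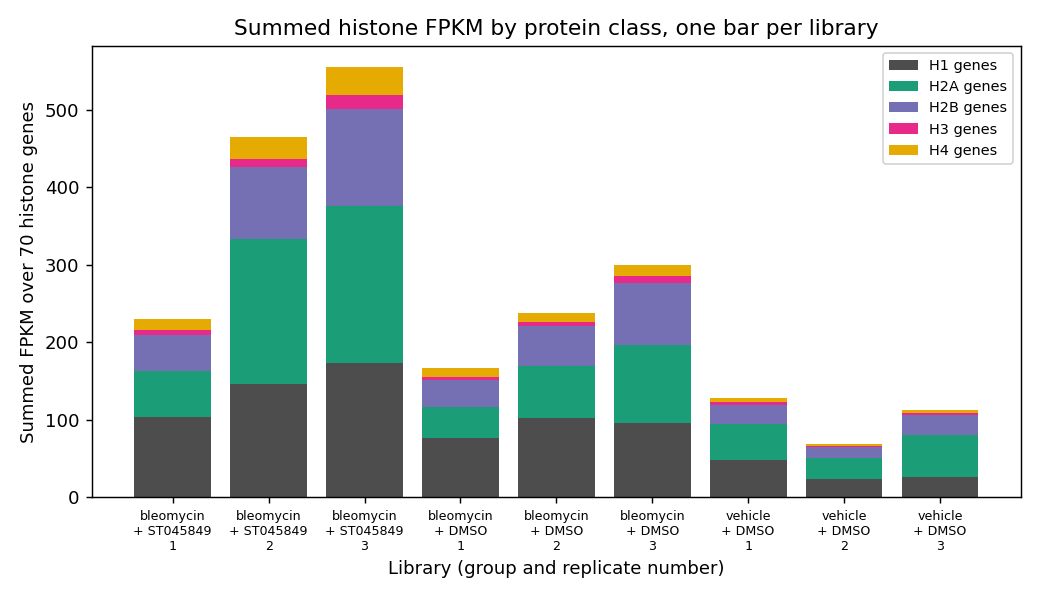
Summed FPKM (vertical axis, linear) of the 70 histone genes in each of the 9 libraries, stacked by protein class. The H1, H2A and H2B classes make up most of each bar, and the bars of bleomycin plus ST045849 reach 230.1, 465.7 and 555.0, against 127.6, 68.5 and 112.3 in vehicle plus DMSO.

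The linker histone class was mostly Hist1h1c (H1f2 in the files), which encodes the H1.2 linker histone, at chr13:23738808-23740367 on the plus strand. It had 101.7, 144.3 and 170.4 FPKM in bleomycin plus ST045849, 75.1, 99.6 and 92.0 FPKM in bleomycin plus DMSO, and 47.2, 23.6 and 25.9 FPKM in vehicle plus DMSO. The 3 groups did not overlap. Hist1h1e (H1f4), the H1.4 linker histone gene, had 1.16, 1.14 and 1.61 FPKM in bleomycin plus ST045849, 1.24, 1.55 and 2.35 FPKM in bleomycin plus DMSO, and 0.389, 0.336 and 0.411 FPKM in vehicle plus DMSO. Both bleomycin groups stood above the vehicle group and overlapped each other. Its annotated exons overlap those of Hist1h2be on the same strand over 25.7% of their length, so reads there could have been given to either gene.

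Among the H2A genes the highest values belonged to Hist1h2al, at chr13:51202727-51203065 on the minus strand, far from the histone cluster of that chromosome. It had 50.8, 170.6 and 179.7 FPKM in bleomycin plus ST045849, 33.6, 58.5 and 86.6 FPKM in bleomycin plus DMSO, and 40.2, 23.9 and 47.3 FPKM in vehicle plus DMSO. Only bleomycin plus ST045849 and vehicle plus DMSO did not overlap. Its identity is uncertain as a histone messenger: 67.6% of the 50-base words in its 339 annotated bases also occur in exons of 44 other genes. RefSeq lists it as a transcribed pseudogene, H2af-ps2, 2983 bases long. Without it, the family's sum was 179.4, 295.2 and 375.2 FPKM in bleomycin plus ST045849, 133.1, 180.0 and 212.6 FPKM in bleomycin plus DMSO, and 87.3, 44.5 and 65.1 FPKM in vehicle plus DMSO.

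Hist3h2a (H2aw), an H2A gene on chromosome 11 outside the main clusters, had 5.53, 10.7 and 13.8 FPKM in bleomycin plus ST045849, 4.28, 6.11 and 7.45 FPKM in bleomycin plus DMSO, and 4.22, 2.44 and 4.41 FPKM in vehicle plus DMSO. Only the first and the last of these groups stood apart. Hist2h2aa2 (H2ac19) had 1.10, 2.29 and 3.85 FPKM in bleomycin plus ST045849, 0.519, 1.05 and 2.99 FPKM in bleomycin plus DMSO, and 0.501, 0.240 and 0.864 FPKM in vehicle plus DMSO. Every 50-base word of this gene is shared with another gene on either strand. The antisense gene Gm20632, at 0.718 to 1.90 FPKM, covers all its bases. Its near-identical copy Hist2h2aa1 was at 0 to 0.0654 FPKM, and the split between the 2 copies is uncertain. Hist2h2ac (H2ac20) had 0.632, 1.44 and 2.95 FPKM in bleomycin plus ST045849, 0.323, 0.646 and 1.81 FPKM in bleomycin plus DMSO, and 0.322, 0.121 and 0.491 FPKM in vehicle plus DMSO. For both genes the vehicle group overlapped bleomycin plus DMSO and lay below bleomycin plus ST045849.

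The leading H2B gene was Hist1h2bc (H2bc4), at chr13:23684199-23692908 on the plus strand. It had 37.6, 83.9 and 115.1 FPKM in bleomycin plus ST045849, 26.6, 41.1 and 65.6 FPKM in bleomycin plus DMSO, and 19.2, 9.40 and 19.6 FPKM in vehicle plus DMSO. Both bleomycin groups lay above the vehicle group. Hist1h2be (H2bc6) had 1.02, 1.43 and 1.44 FPKM in bleomycin plus ST045849, 0.408, 0.546 and 0.948 FPKM in bleomycin plus DMSO, and 0.174, 0.154 and 0.199 FPKM in vehicle plus DMSO, with all 3 groups apart. Hist2h2bb (H2bc18) had 5.09, 3.74 and 4.13 FPKM in bleomycin plus ST045849, 4.63, 5.67 and 9.75 FPKM in bleomycin plus DMSO, and 3.98, 2.58 and 4.40 FPKM in vehicle plus DMSO. Bleomycin plus ST045849 overlapped both other groups there. Its exons share 59.3% of their bases with the same-strand noncoding gene Gm42743, which was at 2.38 to 9.20 FPKM over the 9 libraries, so its reads may be those of that gene.

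H2A and H2B genes often sit head to head and share the stretch between their starts. There were 14 such pairs with annotated starts 173 to 306 bases apart. Hist1h2bc and Hist1h2ac start 251 bases apart on chromosome 13. Hist1h2ac (H2ac6) was at 0.335 to 0.610 FPKM in bleomycin plus ST045849, 0.179 to 0.484 FPKM in bleomycin plus DMSO, and 0.0223 to 0.0962 FPKM in vehicle plus DMSO. Against these, Hist1h2bc was the higher of the pair in all 9 libraries, and in Hist3h2a and Hist3h2bb-ps the H2A gene was the higher in all 9, with Hist3h2bb-ps at most at 0.0805 FPKM. By mean FPKM the H2B gene was the higher in 7 pairs and the H2A gene in 4, and in 3 pairs both were at 0.

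The H3 genes that reached the filter were low. Hist2h3c1 (H3c14) had 3.70, 3.36 and 10.3 FPKM in bleomycin plus ST045849, 2.40, 2.69 and 4.85 FPKM in bleomycin plus DMSO, and 1.79, 0.868 and 1.82 FPKM in vehicle plus DMSO. The near-identical Hist2h3c2 (H3c15) had 1.84, 4.17 and 4.21 FPKM in bleomycin plus ST045849, 1.01, 1.40 and 1.60 FPKM in bleomycin plus DMSO, and 1.38, 0.493 and 0.615 FPKM in vehicle plus DMSO. In both, bleomycin plus ST045849 lay above vehicle plus DMSO, and reads could pass between the copies, which share 100% and 63.5% of their 50-base words with other genes. For Hist2h3c1 these genes include Gm20634, which covers all its exon bases on the same strand and was at 0 to 0.0119 FPKM. Hist1h3d (H3c4) had 0.495, 1.32 and 1.92 FPKM in bleomycin plus ST045849, 0.482, 0.627 and 1.32 FPKM in bleomycin plus DMSO, and 0.358, 0.0777 and 0.234 FPKM in vehicle plus DMSO. Both bleomycin groups stood above the vehicle group and overlapped each other.

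The H4 genes named here are known to encode one and the same core histone. Hist1h4h (H4c8), at chr13:23531050-23531519 on the plus strand, had 5.49, 15.5 and 16.1 FPKM in bleomycin plus ST045849, 4.10, 4.51 and 4.11 FPKM in bleomycin plus DMSO, and 1.67, 0.477 and 0.770 FPKM in vehicle plus DMSO. Hist1h4i (H4c9), at chr13:22040636-22041362 on the minus strand, had 5.15, 10.5 and 13.6 FPKM in bleomycin plus ST045849, 3.64, 3.93 and 4.59 FPKM in bleomycin plus DMSO, and 2.48, 0.926 and 1.25 FPKM in vehicle plus DMSO. The 3 groups did not overlap in either gene, and in bleomycin plus ST045849 library 1 lay well below libraries 2 and 3. Hist1h4a (H4c1) had 0.695, 1.52 and 2.56 FPKM in bleomycin plus ST045849 and 0.624, 1.04 and 0.938 FPKM in bleomycin plus DMSO, and in vehicle plus DMSO it was at 0.0748 FPKM in library 1 and listed at 0 in libraries 2 and 3. No ratio is given against those values, which are about 1 fragment or none.

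**Figure D2:**
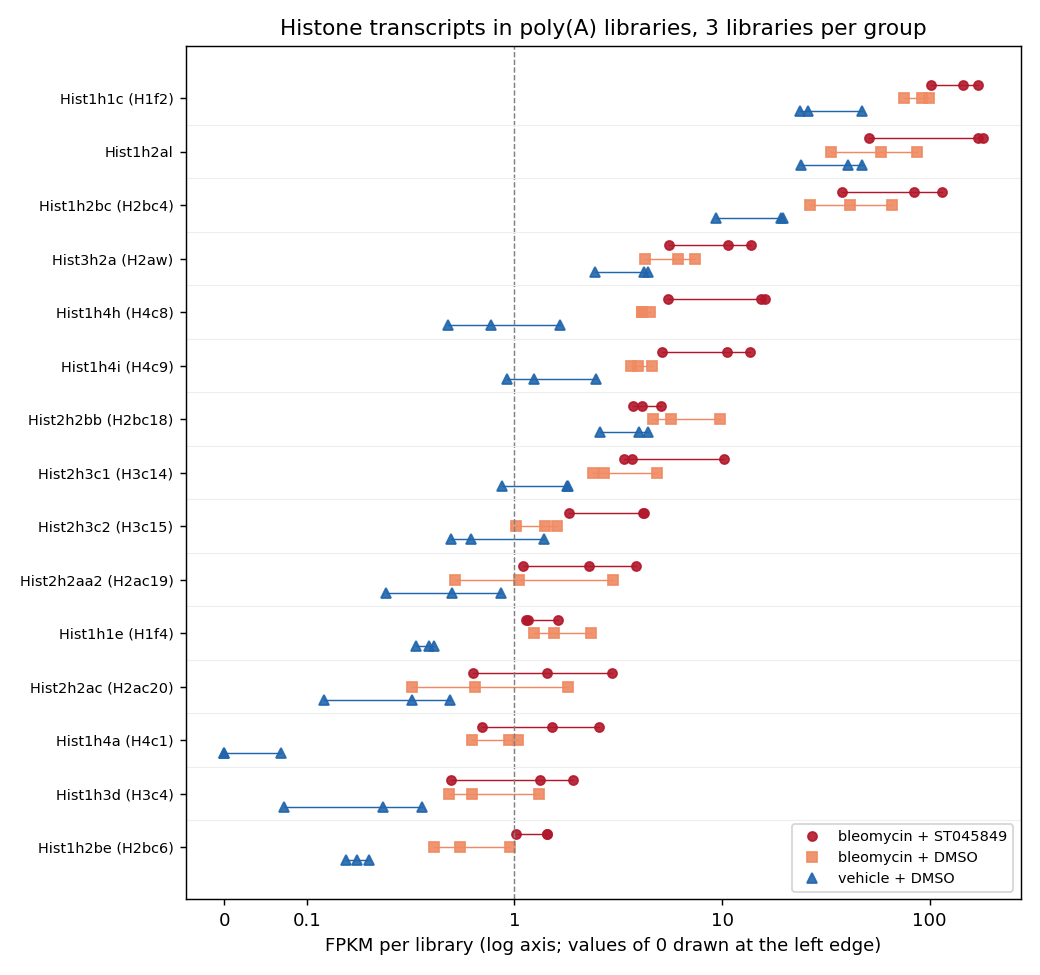
FPKM (log axis) in each of the 9 libraries for the 15 histone genes that reached 1 FPKM (dashed line) in 3 or more libraries, ordered by mean level, with a line joining the lowest and highest library of a group. For Hist1h1c, Hist1h4h, Hist1h4i and Hist1h2be the 3 groups do not overlap, and for Hist2h2bb bleomycin plus ST045849 lies within reach of both other groups.

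The 55 members below the filter summed to 8.13, 9.91 and 13.1 FPKM in bleomycin plus ST045849, 7.64, 9.46 and 12.3 FPKM in bleomycin plus DMSO, and 3.62, 2.78 and 4.12 FPKM in vehicle plus DMSO. Their sums in the 2 bleomycin groups overlapped, and both lay above the vehicle group. The 5 with the highest mean were Hist1h2bg at 0.805 FPKM, Hist2h2be at 0.660 FPKM, Hist1h2bb at 0.620 FPKM, Hist1h4n at 0.535 FPKM and Hist1h4k at 0.497 FPKM over the 9 libraries. Hist1h2bg, Hist1h2bb and Hist1h4n reached 1 FPKM in 2 libraries each and so fell just short of the filter, while Hist2h2ac, Hist1h4a, Hist1h3d and Hist1h2be passed it with 3. Group means were higher in bleomycin plus DMSO than in vehicle plus DMSO for 39 of the 55 and lower for 8. Between bleomycin plus ST045849 and bleomycin plus DMSO they were higher for 25 and lower for 21. The same counts over all genes below the filter were not made.

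The annotated end of a gene went with its level, as a description over genes that share sequence. Of the 23 members whose annotated transcript runs on for 100 bases or more behind the stem-loop, 9 reached the filter, and the median of their mean levels was 0.321 FPKM. Of the 22 with a stem-loop and fewer annotated bases behind it, 3 reached it, with a median of 0.0649 FPKM. That median is under the value of 1 fragment in a 400-base transcript, 0.0697 to 0.0799 FPKM if a step is 1 fragment. Hist1h2al and Hist1h2bc, among the 3 leading genes, are in neither of these 2 classes. An AATAAA or ATTAAA hexamer, the usual poly(A) signals, lay behind the stem-loop in 16 of the 23 and in 1 of the 22. Hist1h1c is annotated with 840 bases behind its stem-loop and holds both hexamers there. Copies with short annotated ends also share more sequence, a median of 63.1% of their 50-base words against 24.6% for those with long ends, and its part in their lower levels was not tested.

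**Figure D3:**
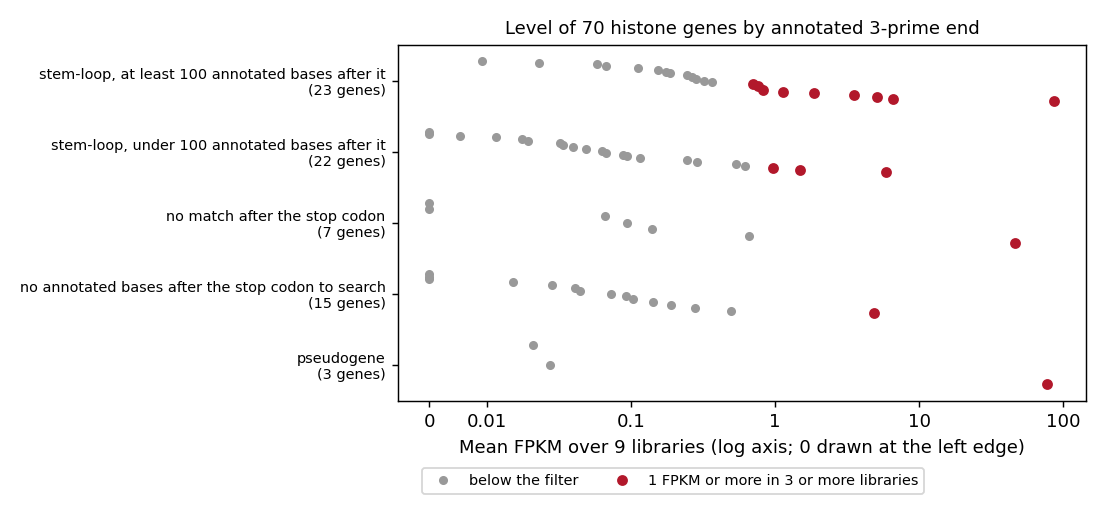
Mean FPKM over the 9 libraries (log axis) of each of the 70 histone genes, in rows by what the longest annotated 3′ UTR shows, with pseudogenes apart. Red points reached 1 FPKM in 3 or more libraries. Of 23 genes with a long annotated end behind the stem-loop 9 are red, against 3 of 22 with a short one.

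The stretches upstream of 3 genes are shown because these genes, or the pair in one case, had the highest levels or the largest differences. Each is the 250 bases before the RefSeq start (GRCm38.p6), with CCAAT and TATAAA in capitals on either strand, and likewise the octamer named below. The Hist1h2ac stretch, written on the minus strand, spans the space to Hist1h2bc.
Hist1h1c, chr13:23738557-23738806, plus strand: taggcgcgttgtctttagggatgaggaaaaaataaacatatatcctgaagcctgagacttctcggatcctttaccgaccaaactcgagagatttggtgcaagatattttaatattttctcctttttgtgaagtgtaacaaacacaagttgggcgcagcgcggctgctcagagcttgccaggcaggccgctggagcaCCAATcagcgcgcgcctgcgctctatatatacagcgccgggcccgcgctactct
Hist1h2ac, chr13:23683960-23684209, minus strand: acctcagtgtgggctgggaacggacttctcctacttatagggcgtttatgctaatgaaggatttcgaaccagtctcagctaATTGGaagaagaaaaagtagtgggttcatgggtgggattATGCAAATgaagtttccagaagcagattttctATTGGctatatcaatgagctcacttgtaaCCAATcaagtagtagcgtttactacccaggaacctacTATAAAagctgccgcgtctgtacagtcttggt
Hist1h4h, chr13:23530794-23531043, plus strand: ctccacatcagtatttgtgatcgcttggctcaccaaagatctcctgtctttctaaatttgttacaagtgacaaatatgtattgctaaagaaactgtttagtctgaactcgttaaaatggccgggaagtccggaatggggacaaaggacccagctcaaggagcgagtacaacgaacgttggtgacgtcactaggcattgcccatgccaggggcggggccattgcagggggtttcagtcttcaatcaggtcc

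RefSeq promoters, 250 bases before to 50 bases after the start, were found for 62 of the 70 members, 63 promoters in all, and searched on both strands. CCAAT was in 85.7% of them, against 37.4% of the 32851 promoters of all genes. It was in every H1, H2A, H2B and H3 promoter searched and in 25.0% of the 12 H4 promoters. TATAAA was in 55.6%, against 13.6% of all promoters. The octamer ATTTGCAT was in 22.2%, against 1.74% of all promoters, and among the members only in H2A and H2B genes.

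In bleomycin plus DMSO against vehicle plus DMSO, 3 of the 15 members rose, both linker histone genes and 1 H4 gene. The fit was limma with a mean trend on log2(FPKM + 1) over all 9 libraries and 12441 genes, with Benjamini-Hochberg adjustment and a threshold of 0.05, and fold changes on this scale understate those of low genes. In this comparison 4.2% of all tested genes rose and 0.675% fell. Hist1h1c was higher by 1.49 (log2, SE 0.29, adjusted p = 0.0164), Hist1h4h by 1.46 (SE 0.35, adjusted p = 0.0387) and Hist1h1e by 0.96 (SE 0.18, adjusted p = 0.0146). None fell.

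The other 12 members did not pass and had differences between 0.38 for Hist2h3c2 and 1.39 for Hist1h2bc (SE 0.44, adjusted p = 0.11). The median over the 15 was 0.69, against 0.10 over all tested genes. The 3 libraries of each group were apart, the bleomycin plus DMSO ones higher, for 10 of the 15, and this held for 21.4% of all tested genes. The filter favoured this for members that passed it through the bleomycin groups. Of the 55 members below the filter, 19 were apart upward and 0 downward. The share over all genes below the filter was not computed, so this cannot be read as particular to histone genes. Over all genes, 22445 to 23218 were above 0 FPKM per library in bleomycin plus DMSO, against 20355 to 20893 in vehicle plus DMSO. The calls rested on few libraries: no member was called without library 2 or 3 of bleomycin plus DMSO or library 2 or 3 of vehicle plus DMSO, 2 were without library 1 of bleomycin plus DMSO, and 6 were without library 1 of bleomycin plus ST045849. With the 2 groups fitted alone 5 members and 1024 of all genes were called, and with TPM 5 members and 631 genes, against 607 genes in the fit of all 9 libraries. With no filter on low values none of the 3 was called (adjusted p = 0.0549 for Hist1h1c, 0.0519 for Hist1h1e and 0.127 for Hist1h4h).

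In bleomycin plus ST045849 against bleomycin plus DMSO, no member and no gene of the 12441 passed the limma fit of all 9 libraries (0% upward and 0% downward). At an unadjusted p under 0.05 there were 4 members, Hist1h4h, Hist2h3c2, Hist1h4i and Hist1h2be, and 2804 (22.5%) of all genes. The largest differences were 1.22 for Hist1h4h (SE 0.35, adjusted p = 0.203), 1.05 for Hist1h2al (SE 0.49, adjusted p = 0.226) and 1.01 for Hist1h4i (SE 0.32, adjusted p = 0.203). Hist2h2bb was at -0.48 (SE 0.26, adjusted p = 0.268) and Hist1h1e at -0.22 (SE 0.18, adjusted p = 0.442), and the other 13 were above 0, as were 55.1% of all tested genes. The median was 0.55, against 0.06 over all tested genes.

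The labels name no shared source for libraries of equal replicate number in these 2 groups. Equal numbers were taken as pairs because their deviations from the group means correlated in these same data, at 0.466, 0.481 and 0.5. Chosen in this way, the pairing is not independent of the values tested. The paired fit of the 2 groups called 8 of the 15 members upward and none downward. Of all tested genes it called 11.3% upward and 8% downward. With all 9 libraries fitted together and replicate number as a block, neither a member nor any other gene passed in this comparison. Those called in the paired fit of the 2 groups were Hist1h2al (paired adjusted p = 0.018 by limma), Hist1h4h (0.0186), Hist2h3c2 (0.0188), Hist1h4i (0.0193), Hist1h2bc (0.0259), Hist3h2a (0.0444), Hist1h1c (0.0477) and Hist1h2be (0.0492). The unpaired count also turned on 1 library. Without library 1 of bleomycin plus ST045849, the group's lowest in the family's sum, 7 members and 2225 of all genes were called. The groups were apart, the bleomycin plus ST045849 libraries higher, for 5 of the 15 members, and for 16.5% of all tested genes. Hist1h2be, 1 of these 5, passed the filter only through bleomycin plus ST045849. The filter therefore favoured its separation here, its paired call and its unadjusted p.

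In bleomycin plus ST045849 against vehicle plus DMSO, 10 of the 15 members rose and none fell, where 8.11% of all tested genes rose and 1.74% fell. This comparison shares its libraries with the other 2. Of the H4 genes, Hist1h4h rose by 2.68 (SE 0.35, adjusted p = 0.0022), Hist1h4i by 2.04 (SE 0.32, adjusted p = 0.00453) and Hist1h4a by 1.27 (SE 0.24, adjusted p = 0.00978), and the change of Hist1h4h was the largest among the 15 members. Both linker histone genes rose, Hist1h1c by 2.11 (SE 0.29, adjusted p = 0.00259) and Hist1h1e by 0.74 (SE 0.18, adjusted p = 0.0304). With each library's length trend removed, Hist1h1e was at 0.25 (adjusted p = 0.441) and no longer called. With no filter on low values its adjusted p by limma was 0.0886. Hist1h2bc (0.0696), Hist2h3c2 (0.0773), Hist3h2a (0.119) and Hist2h3c1 (0.134) did not pass without the filter either. Hist1h1c, Hist1h2be, Hist1h4a, Hist1h4i and Hist1h4h did, as did Hist1h4f (0.0268) and Hist1h2bb (0.0375), which are below the filter. Of the H2B genes, Hist1h2bc rose by 2.15 (SE 0.44, adjusted p = 0.0148) and Hist1h2be by 0.96 (SE 0.17, adjusted p = 0.00687).

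Of the H3 genes, Hist2h3c1 rose by 1.32 (adjusted p = 0.0415) and Hist2h3c2 by 1.24 (adjusted p = 0.0174), and of the H2A genes Hist3h2a rose by 1.18 (adjusted p = 0.04). The 5 that did not pass were Hist1h2al at 1.67 (adjusted p = 0.0542), Hist2h2aa2 at 1.09 (adjusted p = 0.0798), Hist2h2ac at 0.94 (adjusted p = 0.0891), Hist1h3d at 0.83 (adjusted p = 0.0611) and Hist2h2bb at 0.21 (adjusted p = 0.599). The groups were apart upward for 14 of the 15, and for 21% of all tested genes, and the median was 1.24 against 0.19 over all. The filter favoured both for members that passed it through the bleomycin groups. Of the 55 members below the filter, 17 were apart upward and 0 downward. Here too the share over all genes below the filter was not computed. Over all genes, 21265 to 22480 were above 0 FPKM per library in bleomycin plus ST045849, against 20355 to 20893 in vehicle plus DMSO. Hist1h1c, Hist1h4h, Hist1h4i and Hist1h2be were called whichever library was left out. These fits kept the filter of all 9 libraries. Hist1h2be passed it only through the 3 libraries of bleomycin plus ST045849. Without any 1 of them, its place among the tested genes still relied on the library left out. The number called was 4 without library 2 of vehicle plus DMSO, 6 without its library 3, 5 without library 3 and 6 without library 2 of bleomycin plus ST045849, and 14 without library 1 of bleomycin plus ST045849 (the range over all 9 was 4 to 14).

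**Figure D4:**
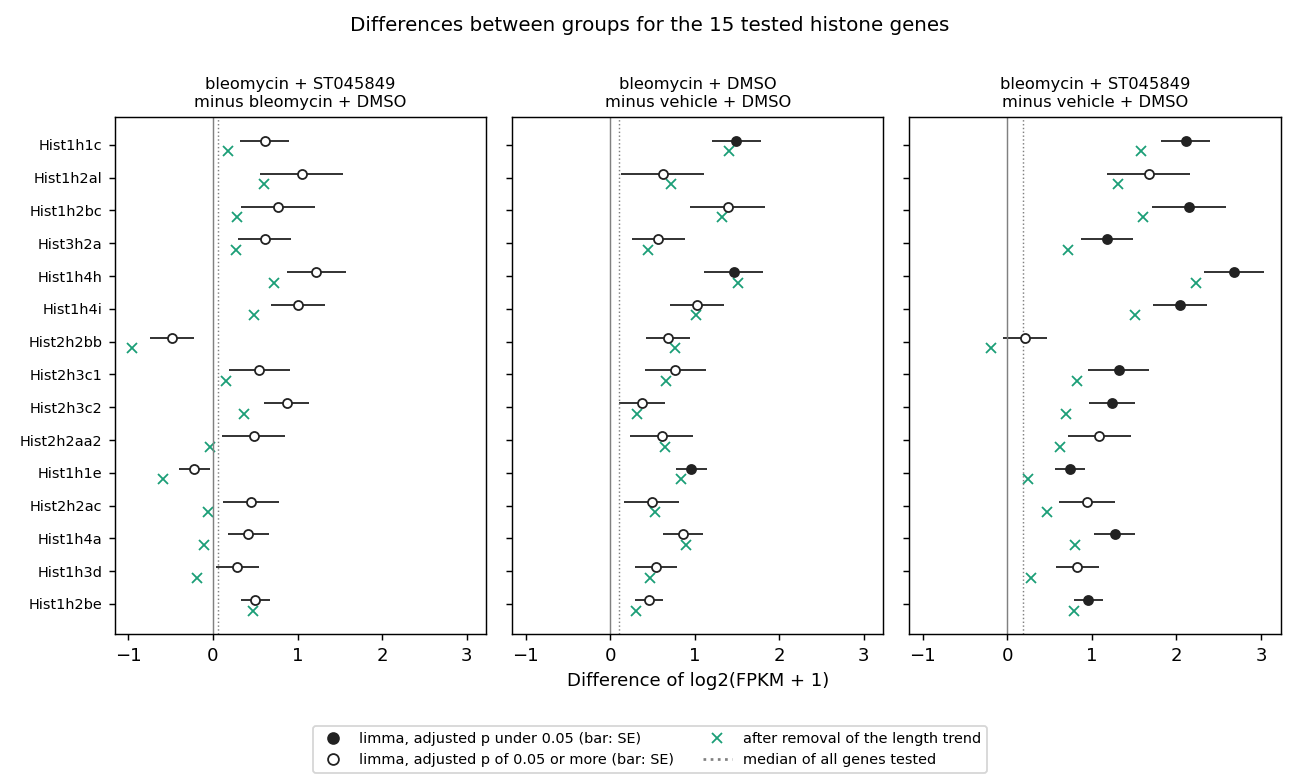
Difference of log2(FPKM + 1) for the 15 tested histone genes in the 3 comparisons; filled points passed limma at an adjusted p under 0.05, bars are standard errors, crosses are the differences after removal of each library's length trend, and the dotted line is the median of all genes tested. Filled points number 0, 3 and 10 from left to right, and the crosses lie left of most points in both panels with bleomycin plus ST045849.

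Libraries differed in how their values depended on transcript length. The median annotated length of the family was 532 bases, against 4248.5 bases over all tested genes, and the slope of a library's log2 deviations on log2 length was 0.019, -0.212 and -0.139 in bleomycin plus ST045849, 0.097, 0.038 and 0.093 in bleomycin plus DMSO, and -0.072, 0.101 and 0.075 in vehicle plus DMSO. Libraries 2 and 3 of bleomycin plus ST045849, the highest in the family's sum, read short transcripts relatively high, while library 1 of that group lay within the range of the vehicle libraries. After removal of each library's length trend, no member and 0.0161% of all genes were called upward in bleomycin plus ST045849 against bleomycin plus DMSO, no member was called in the paired fit, and the median difference was 0.18. Hist1h4a, Hist1h3d, Hist2h2aa2 and Hist2h2ac then fell slightly below 0. Against vehicle plus DMSO the counts with the length trend removed were 7 for bleomycin plus ST045849, with 3.69% of all genes called upward, and 5 for bleomycin plus DMSO, with 3.02% of all. The medians there were 0.79 and 0.72. The 3 calls lost for bleomycin plus ST045849 were Hist1h1e, Hist3h2a (0.72, adjusted p = 0.105) and Hist2h3c1 (0.82, adjusted p = 0.151).

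**Figure D5:**
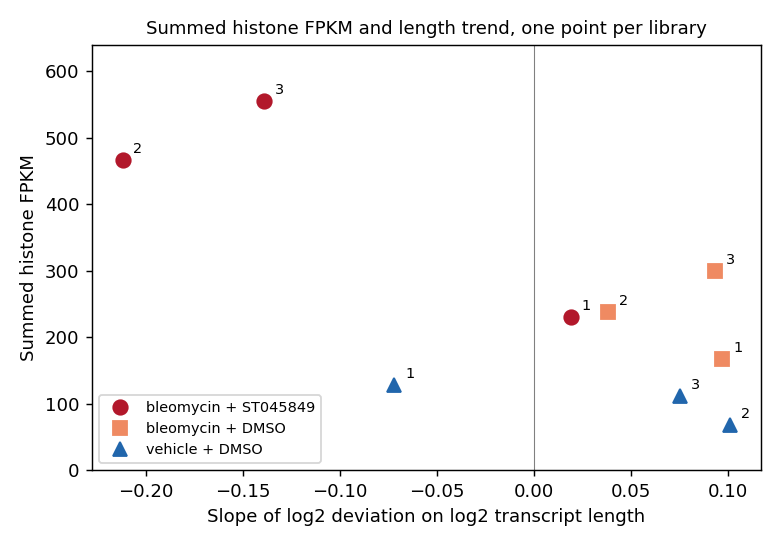
Summed FPKM of the 70 histone genes (vertical axis) against the slope of the library's log2 deviations on log2 annotated transcript length (horizontal axis), 1 numbered point per library. Libraries 2 and 3 of bleomycin plus ST045849 lie at slopes of -0.212 and -0.139 with sums of 465.7 and 555.0, and library 1 lies at 0.019 with 230.1.

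Few genes that act on histone messengers or their promoters were called in the fit of all 9 libraries. Of 17 tested genes for histone 3′ end processing and turnover none was called in any of the 3 comparisons. Slbp, whose product binds the stem-loop, had 10.6, 7.57 and 19.2 FPKM in bleomycin plus ST045849, 9.10, 9.73 and 10.4 FPKM in bleomycin plus DMSO, and 9.43, 9.45 and 12.5 FPKM in vehicle plus DMSO, with overlap between all groups. Lsm11, a protein of the U7 particle, had 0.903 to 1.01 FPKM, 0.810 to 1.10 FPKM and 0.798 to 1.22 FPKM in the same 3 groups. Casp8ap2, a processing factor of histone messengers, was at 0.304 to 0.870 FPKM in bleomycin plus ST045849, 0.482 to 2.57 FPKM in bleomycin plus DMSO and 1.52 to 2.07 FPKM in vehicle plus DMSO, and its difference between the first and the last was -0.88 (adjusted p = 0.0717). Sympk, a scaffold of the cleavage complex and the highest of the list, differed by -0.06 between bleomycin plus DMSO and vehicle plus DMSO (adjusted p = 0.919).

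Of 12 tested regulators of histone gene transcription, 2 rose in bleomycin plus ST045849 against vehicle plus DMSO and none was called elsewhere. In that comparison 8.11% of all tested genes rose. Ccne1, the cyclin that acts at S phase entry, rose by 1.13 (SE 0.24, adjusted p = 0.017) and E2f1 by 0.76 (SE 0.17, adjusted p = 0.0212). Npat, the coactivator of histone genes, had 3.20, 1.58 and 3.71 FPKM in bleomycin plus ST045849, 5.93, 2.73 and 6.22 FPKM in bleomycin plus DMSO, and 3.15, 4.94 and 5.66 FPKM in vehicle plus DMSO. Its groups overlapped. Of 19 tested histone chaperones 1 rose in bleomycin plus ST045849 against vehicle plus DMSO, Dnajc9 by 0.93 (adjusted p = 0.0304 by limma). That count is to be read against the same 8.11% of all tested genes.

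Proliferation genes gave no calls in the fit of all 9 libraries. None of 27 tested DNA replication genes was called in any comparison. Rrm2, the highest of them, differed by 0.66 (SE 0.25, adjusted p = 0.182 by limma) between bleomycin plus DMSO and vehicle plus DMSO. Against vehicle plus DMSO, 20 of the 27 were higher in bleomycin plus DMSO and 22 in bleomycin plus ST045849. Their medians were 0.09 and 0.28, against 0.1 and 0.19 over all tested genes. Of 11 tested mitotic genes, none was called either, and 10 of the 11 had a lower mean in each bleomycin group than in vehicle plus DMSO. Mki67, the proliferation marker, had 0.709, 0.231 and 0.210 FPKM in bleomycin plus ST045849, 3.30, 0.499 and 0.659 FPKM in bleomycin plus DMSO, and 3.81, 1.55 and 2.06 FPKM in vehicle plus DMSO. Top2a, the highest of the list, differed by -0.24 (adjusted p = 0.744) between bleomycin plus DMSO and vehicle plus DMSO.

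Replication-independent histone genes, whose messengers are polyadenylated as a rule, were compared as the nearest relatives. Of 11 tested, none was called in bleomycin plus DMSO against vehicle plus DMSO, where their median was 0.06. H2afv rose by 0.74 (adjusted p = 0.0405 by limma) in bleomycin plus ST045849 against vehicle plus DMSO, the only call of the list there. Of all tested genes, 8.11% rose in that comparison. H3f3b, the H3.3 gene with the highest level, had 119.5, 170.0 and 312.7 FPKM in bleomycin plus ST045849, 102.2, 157.6 and 161.2 FPKM in bleomycin plus DMSO, and 197.7, 129.7 and 151.6 FPKM in vehicle plus DMSO. In the paired fit of bleomycin plus ST045849 against bleomycin plus DMSO 5 of the 11 were called upward and 0 downward. Over all tested genes these shares were 11.3% and 8%. The same fit called downward 2 of the end processing genes, 2 of the transcription regulators, 1 mitotic gene, 3 chondrocyte markers and 2 fibroblast or synovial markers, and it called 1 chaperone in each direction and no DNA replication gene.

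Markers of other cell types moved with the groups too, and their part in the histone differences was not tested. Of 10 macrophage markers 3 were tested, and Lyz2, Cd68 and Cd14 all rose in both bleomycin groups against vehicle plus DMSO. Lyz2 rose by 1.43 in bleomycin plus ST045849 (adjusted p = 0.00259 by limma) and by 1.03 in bleomycin plus DMSO (adjusted p = 0.0152). Of all tested genes, 8.11% and 4.2% rose in these comparisons. The list summed to 11.9 to 18.0 FPKM in bleomycin plus ST045849, 10.9 to 12.6 FPKM in bleomycin plus DMSO and 3.05 to 5.75 FPKM in vehicle plus DMSO. The other 7 markers were low: every library listed Tyrobp, C1qb and C1qc at 0, and C1qa, Adgre1 and Ptprc were at 0 in all vehicle libraries and at most 0.144, 0.0247 and 0.02 FPKM in the bleomycin groups. Csf1r was at 0.0303 to 0.153 FPKM in bleomycin plus ST045849, 0.0446 to 0.0709 FPKM in bleomycin plus DMSO and 0.0225 to 0.0438 FPKM in vehicle plus DMSO.

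Of 9 tested fibroblast or synovial markers 3 rose in bleomycin plus DMSO against vehicle plus DMSO, where 4.2% of all tested genes rose. Thy1 by 2.00 (adjusted p = 0.0126 by limma) and Lum by 1.56 (adjusted p = 0.0414) came first. In bleomycin plus ST045849 1 of the 9 rose against vehicle plus DMSO. All 9 were lower there than in bleomycin plus DMSO, with a median of -0.53 and none called. The list of 10 summed to 3450 to 6890 FPKM in bleomycin plus ST045849, 6130 to 8530 FPKM in bleomycin plus DMSO and 3850 to 4800 FPKM in vehicle plus DMSO. Of 13 chondrocyte markers 4 fell in bleomycin plus ST045849 against vehicle plus DMSO, where 1.74% of all tested genes fell. Acan with a difference of -1.66 (adjusted p = 0.00657 by limma) and Matn3 with -1.80 (adjusted p = 0.0097) came first. Called or not, 10 of the 13 were lower there and 3 were higher. None of the 13 was called in the other comparisons. Summed endothelial markers were at most 0.771 FPKM and summed erythroid markers at most 0.292 FPKM in any library, and none of the 2 tested muscle markers, of which Tnnt3 was the higher, was called.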

How the data were processed

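Poly(A)-selected stranded libraries of primary mouse articular chondrocytes were prepared with the TruSeq Stranded mRNA kit, per the labels' protocols. Reads were trimmed with Trimmomatic and aligned to GRCm38 with STAR, per the submitters' processing notes. The deposited FPKM values were made by the authors. No source used here gives the counting tool, its annotation or its handling of reads that fit several genes, so near-identical and overlapping histone genes are uncertain.

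From these values, each row's Ensembl identifier was matched to GENCODE vM21 (99.4% of 55450 rows). Genes at 1 FPKM or more in 3 or more of 9 libraries (12441) were tested with limma 3.58.1 in R 4.3.3 on log2(FPKM + 1), with a mean trend, group means and no block over all 9 libraries, and Benjamini-Hochberg adjustment. The fit was tested on simulated data. The annotated length came from merged vM21 exons, and a library's length trend was a loess curve (span 0.5) of its deviations. Shared sequence was counted in 50-base words on either strand, exact matches only.

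Equal replicate numbers of bleomycin plus ST045849 and bleomycin plus DMSO paired the libraries by the data: the deviations from the group means correlated across genes at 0.466, 0.481 and 0.5, and the labels name no shared source. The named genes were every member past the filter, the 5 highest below it, up to 2 called rises and falls per list and comparison or otherwise the highest member, and Slbp, Npat, Lsm11, Casp8ap2, Mki67 and Col2a1. Members and lists were chosen with earlier results of these data known. Alternatives covered the pseudocount, filter, scaling, TPM, block, groups in the fit, length trend and each library left out. With a library left out, the filter of all 9 was kept. Depth is not given, and precision is limited by 3 libraries per group.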

Additional observations from a re-analysis of the deposited data

How the results depend on the processing

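Directions of members and medians held under the pseudocounts 0.1 and 0.5, TPM, median-of-ratios and quantile scaling, the filters, the block and each library left out. Under the length trend removed, with or without the block, Hist1h4a came to -0.10, Hist2h2aa2 to -0.035, Hist2h2ac to -0.057 and Hist1h3d to -0.19 in bleomycin plus ST045849 against bleomycin plus DMSO, and Hist2h2bb to -0.19 against vehicle plus DMSO. For values that changed below, the cause was not tested beyond fewer genes or libraries entering a fit. A filter of 5 FPKM in 3 libraries kept 7 members, and 1 FPKM in all 9 kept 5.

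In bleomycin plus DMSO against vehicle plus DMSO (3 members, 607 genes, median 0.69), the members called were 1 with no filter (Hist2h4, which is below the filter, and none of the 3), 1 at a mean of 5 FPKM or more (Hist1h1c), 5 with TPM, 5 with 2 groups alone and 5 with the length trend removed. The genes called were 284 at a mean of 5 FPKM and 1024 with 2 groups alone. The median was 1.35 with the pseudocount 0.1, 0.15 with no filter and 1.21 at a mean of 5 FPKM. Leaving out a library gave 0 to 6 members, 184 to 829 genes and medians of 0.42 to 0.92.

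In bleomycin plus ST045849 against bleomycin plus DMSO (0 members, 0 genes, median 0.55), the genes called were 1 with no filter and 2 at a mean of 5 FPKM, with median-of-ratios scaling, with quantile normalization and with the length trend removed. The median was 0.039 with no filter, 0.89 at a mean of 5 FPKM and 0.18 with the length trend removed. Leaving out a library gave 0 to 7 members, 0 to 2225 genes and medians of 0.36 to 0.79.

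In bleomycin plus ST045849 against vehicle plus DMSO (10 members, 1225 genes, median 1.24), 5 members were called at a mean of 5 FPKM. The genes called were 651 with no filter, 660 at a mean of 5 FPKM, 710 with TPM, 621 with 2 groups alone and 782 with the length trend removed. The median was 1.99 with the pseudocount 0.1, 0.16 with no filter, 2.07 at a mean of 5 FPKM and 0.79 with the length trend removed. Leaving out a library gave 4 to 14 members, 286 to 3060 genes and medians of 0.93 to 1.52.

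With the replicate block and 2 groups alone, the paired fit of bleomycin plus ST045849 against bleomycin plus DMSO called 8 members and 2403 genes, and 0 members and 79 genes with the length trend removed too (median 0.18). Against vehicle plus DMSO, numbers did not pair: equal numbers correlated at -0.519, -0.279 and 0.424 for bleomycin plus ST045849 and at -0.071, -0.026 and 0.546 for bleomycin plus DMSO. The block with 2 groups alone gave 4 members and 199 genes for bleomycin plus ST045849, 4 and 168 with the length trend removed too, and 4 members for bleomycin plus DMSO, 8 members and 1056 genes with the length trend removed too. With the length trend removed and the block over all 9 libraries, 6 members and 901 genes were called in bleomycin plus DMSO against vehicle plus DMSO, against 567 genes with the length trend removed alone. With the block over all 9 libraries, bleomycin plus ST045849 against bleomycin plus DMSO had 0 members and 0 genes called.

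Median-of-ratios scaling moved the median of all genes by -0.15 in bleomycin plus DMSO and by -0.20 in bleomycin plus ST045849, both against vehicle plus DMSO, and TPM moved it by -0.25 in bleomycin plus ST045849 against bleomycin plus DMSO. The share of upward calls among all genes fell with median-of-ratios scaling, to 68.1% (main 86.2%) for bleomycin plus DMSO and to 54.7% (main 82.4%) for bleomycin plus ST045849 against vehicle plus DMSO, and 2 and 8 members were called. The filter, 3 libraries per group and values of about 1 fragment for the lowest members limit what can be shown, and no low member's absence can be read from them.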
